A study of Mus musculus with 8 samples.

Results

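The UDP-glucuronosyltransferase 2 family was followed in whole mouse kidneys at embryonic day 16.5. It was taken as 8 genes, Ugt2a3, Ugt2b1, Ugt2b5, Ugt2b34, Ugt2b35, Ugt2b36, Ugt2b37 and Ugt2b38, of 20887 genes with a symbol on the array, and they were read by 9 probes of 27509. The genes were chosen by their log ratios between knockout and wildtype kidneys and by the correlation between their probes, so those values are given as a description, without a test. In brief, 4 members (Ugt2b5, Ugt2b34, Ugt2b37 and Ugt2b38) gave signal well above background and were higher in the knockout kidneys by 0.90 to 1.28 on the log2 scale, and the other 4 gave no usable signal.

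All kidneys came from C57BL/6 embryos. The 4 control (WT) samples were wildtype, and the 4 knockout (KO) samples came from embryos without Dot1 in Six2-positive nephron progenitor cells. Dot1l is the methyltransferase of histone H3 at lysine 79, and Six2 marks the cells from which nephrons form. The deletion was thus confined by label to progenitors and the cells that descend from them, while the whole kidney was measured, and the alleles and the Cre line were not given in the sources used here. RNA of every sample carried the red dye Cy5, and WT1 RNA in the green dye Cy3 was added to all arrays, so each value is a log2 ratio to WT1 and array WT1 sets that RNA against itself.

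Enzymes of this family sit in the membrane of the endoplasmic reticulum and join glucuronic acid, taken from UDP-glucuronate, to steroids, bile acids, fatty acids and many drugs. The conjugates are more soluble and leave the cell through membrane transporters. The genes lie side by side in a cluster, their sequences are closely related, and their best known sites of expression are the liver and, in the kidney, the proximal tubule.

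A few facts of the arrays bear on every value. Arrays WT1 and KO1 had high backgrounds, with median red negative controls of 1361 and 478.25 against 58 to 61 on the other 6. The WT arrays lay in row 1 and the KO arrays in row 2 of their slides, so slide row and genotype cannot be told apart. By the Y-linked genes Ddx3y and Eif2s3y, WT2 and all KO samples were male and WT1, WT3 and WT4 were not. The probe of Dot1l, whose place relative to the deleted part is not known here, differed by 0.03 ± 0.08 (SE, adjusted p = 0.924). All 12 kidney markers were measured, from Pax2 and Pax8 to Nphs1, Umod and Aqp2. Of these Wt1 fell by 0.40. Of 10 nephron progenitor markers Cited1, Meox2, Uncx, Tmem100 and Itga8 fell, with a list median of -0.38 against 0.03 for all genes. The rest did not pass, with Meox1 at -0.37, Six2 at -0.21, Osr1 at -0.06, Eya1 at 0.21 and Crym at 0.23.

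The start regions of the 4 measured members are shown because these genes had the family's differences and their sequences show how closely some of them are related. RefSeq gave such a region, 250 bases before to 50 after the gene's start on GRCm38.p6, for all 8 members, all on chromosome 5. Capitals mark AGGTCA, the half-site of many nuclear receptors, which Ugt2b34 lacks in this window.
Ugt2b5, chr5:87140291-87140590, minus strand: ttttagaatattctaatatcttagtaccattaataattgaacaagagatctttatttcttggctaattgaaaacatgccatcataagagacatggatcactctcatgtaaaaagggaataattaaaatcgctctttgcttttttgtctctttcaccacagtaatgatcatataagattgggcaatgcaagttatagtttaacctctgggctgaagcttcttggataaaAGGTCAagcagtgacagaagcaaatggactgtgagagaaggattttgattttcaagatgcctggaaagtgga
Ugt2b37, chr5:87254739-87255038, minus strand: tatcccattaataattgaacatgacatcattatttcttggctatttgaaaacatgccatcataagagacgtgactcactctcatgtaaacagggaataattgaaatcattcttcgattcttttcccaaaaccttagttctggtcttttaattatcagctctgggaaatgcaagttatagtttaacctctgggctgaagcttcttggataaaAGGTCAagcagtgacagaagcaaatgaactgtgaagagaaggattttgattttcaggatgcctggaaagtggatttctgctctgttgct
Ugt2b38, chr5:87424154-87424453, minus strand: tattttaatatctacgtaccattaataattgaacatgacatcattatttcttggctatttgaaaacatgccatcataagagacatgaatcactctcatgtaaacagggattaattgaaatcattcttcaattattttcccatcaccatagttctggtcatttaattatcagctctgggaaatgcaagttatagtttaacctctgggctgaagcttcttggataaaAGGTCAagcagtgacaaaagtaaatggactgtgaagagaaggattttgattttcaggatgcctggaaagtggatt
Ugt2b34, chr5:86906888-86907187, minus strand: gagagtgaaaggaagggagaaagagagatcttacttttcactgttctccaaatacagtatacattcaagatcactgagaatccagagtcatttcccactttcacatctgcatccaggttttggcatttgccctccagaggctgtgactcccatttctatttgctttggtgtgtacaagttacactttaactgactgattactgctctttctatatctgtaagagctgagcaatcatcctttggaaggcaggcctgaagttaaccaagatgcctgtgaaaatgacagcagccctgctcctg

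Aligned end to end, the regions of Ugt2b37 and Ugt2b38 were 86.9% identical, those of Ugt2b5 and Ugt2b38 84.2%, and those of Ugt2b5 and Ugt2b37 76.2%. Ugt2b34 shared 46.3% to 50.3% with the other 3. Over all 28 pairs of members identity ran from 45.3% to 86.9%, with a median of 48.9%.

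Searched on both strands, AGGTCA was found in 5 of the 8 members (3 measured and 2 not) and in 16.3% of 32851 promoters of the same length. In Ugt2b5, Ugt2b36, Ugt2b37 and Ugt2b38 it began 22 to 39 bases before the start, within the same run of letters. These related windows therefore do not count as separate finds beside that share. TATAAA was found in 0 of the 8 and in 13.6% of all. These matches describe the letters of the windows and are not measured binding.

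Of the measured members, Ugt2b38 had the brightest probe and the highest ratio. On WT1 to WT4 its log2 ratio was 0.11, 0.35, 0.15 and -0.47, and on KO1 to KO4 it was 1.42, 0.98, 1.42 and 1.46. The groups did not overlap, WT4 was the lowest WT array, and KO2 was the lowest KO array. The KO mean exceeded the WT mean by 1.28 ± 0.16 (SE, n = 4 and 4), or 2.43-fold. In the mouse, Ugt2b38 is an annotated UDP-glucuronosyltransferase whose own substrates are little described.

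Ugt2b5, a gene that is also abundant in liver, gave -0.06, -0.56, -0.11 and -0.68 on the WT arrays and 0.85, 0.72, 1.13 and 0.95 on the KO arrays. The lowest KO array stood 0.78 above the highest WT array, the widest gap of the 4. Its mean difference was 1.26 ± 0.14, or 2.4-fold.

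For Ugt2b34 the ratios were -0.01, -0.38, 0.35 and -0.25 on the WT arrays and 0.87, 0.67, 1.41 and 0.96 on the KO arrays. The groups were apart by 0.33, WT3 was the highest WT array and KO3 the highest KO array. The mean difference was 1.05 ± 0.17, or 2.08-fold.

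Ugt2b37 had the smallest difference. It gave -0.07, 0.13, 0.02 and -0.57 on the WT arrays and 0.81, 0.39, 0.84 and 1.08 on the KO arrays, so that KO2 lay 0.26 above WT2. Its mean difference was 0.90 ± 0.16, or 1.87-fold. As in Ugt2b38, KO2 was the lowest KO array and WT4 the lowest WT array.

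Ugt2b38 was well above background on all 8 arrays, and the other 3 on 7, every array but WT1. The WT means of those 3 include the WT1 value, where they were not well above background. Without WT1 and KO1 the differences were 1.27 for Ugt2b38, 1.38 for Ugt2b5, 1.11 for Ugt2b34 and 0.91 for Ugt2b37. Set against WT2, the single male WT array, through a term for sex, they were 0.97, 1.47, 1.36 and 0.65 in the same order. WT2 was the highest WT array for Ugt2b37 and Ugt2b38 and lay below WT1 and WT3 for Ugt2b5 and Ugt2b34, so the order of the 4 genes differed with the control chosen. The part of sex in the members' differences was not tested.

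In the gene-wise limma fit 301 of 13987 genes passed (2.15%), of which 225 were higher in KO (1.61%). All 4 tested members were among the higher genes, at rank 8 (Ugt2b38), 9 (Ugt2b5), 14 (Ugt2b34) and 20 (Ugt2b37) by size. The number of members called was 3 with the software's ratios, 1 with a term for sex, and 0 with median centring, with the red channel alone or with the software's ratios without WT1 and KO1. Of all 13987 genes, 123 passed with the software's ratios and 65 with these ratios without WT1 and KO1. With the red channel alone 1 gene passed, and with median centring 0. In 954 genes (6.82%) all KO arrays lay above all WT arrays, as they did for the 4 members. The members' counts follow from how they were chosen, and nothing further is read from them.

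**Figure D1:**
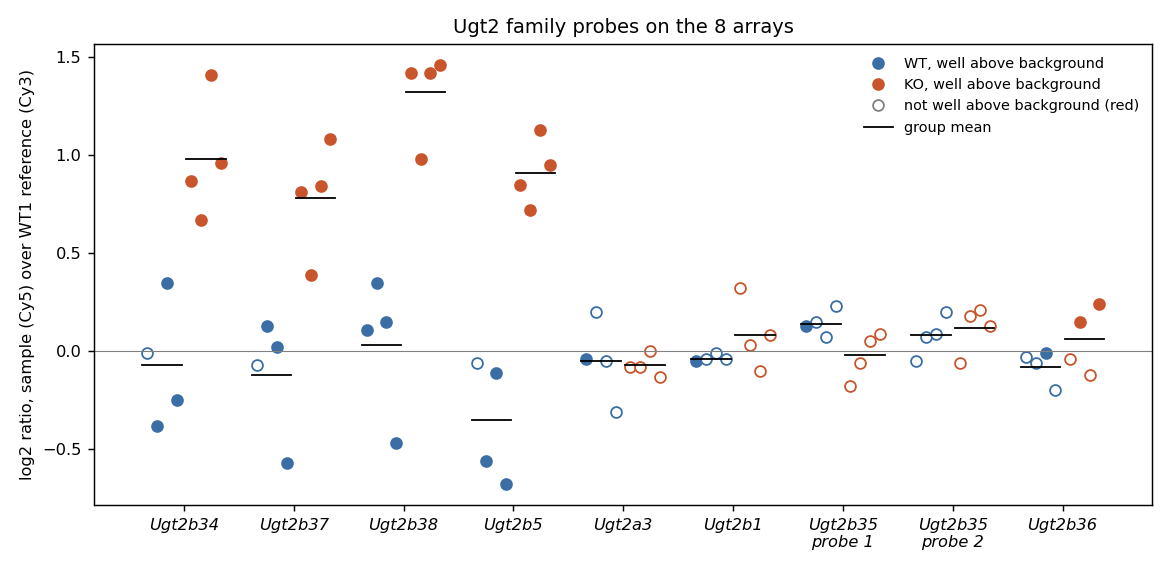
Log2 ratio of each sample (Cy5) to the WT1 reference (Cy3) for the 9 probes of the family, 4 WT (blue) and 4 KO (orange) arrays each, with group means as bars and open circles where red was not well above background. The KO points of Ugt2b34, Ugt2b37, Ugt2b38 and Ugt2b5 lie above all WT points, and the other 5 probes stay near 0 in both groups.

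The remaining members were near background. On the 6 arrays of low background their red signal was 57 to 97.5, beside median negative controls of 58 to 61, with the highest values in Ugt2b36. Ugt2a3 (difference -0.02 ± 0.11, SE) and Ugt2b1 (0.12 ± 0.10) were well above background on WT1 alone, as was the first probe of Ugt2b35 (-0.17 ± 0.09). The second probe of Ugt2b35 was above background on 0 arrays (0.04 ± 0.09). In all these probes the groups overlapped. Ratios of such probes are compressed toward 0 by the added offset, so they do not show that these genes were equally expressed.

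Ugt2b36 came closest to being measured, with red well above background on WT3, KO2 and KO4. Its red signal was 72 to 85 on WT2 to WT4 and 79 to 97.5 on KO2 to KO4, and its difference was 0.13 ± 0.10 with overlapping groups. With the scanner software's own background subtraction the difference was 1.06 ± 0.50. No direction is given for it.

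The raw signals show in which dye the differences arose. For Ugt2b38 red was 1482 to 1864.5 on WT2 to WT4 and 2922 to 5013 on KO2 to KO4, while green, the WT1 RNA, was 649 to 715 and 587 to 655. For Ugt2b5 red was 403 to 535.5 and 803.5 to 1283, and green 253.5 to 287 and 201.5 to 219. Red thus separated WT from KO in both genes, and in Ugt2b5 green, which holds the same RNA on every array, separated them as well in the opposite direction.

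Ugt2b34 had the same feature. Its red signal was 417 to 660 on WT2 to WT4 and 818 to 965 on KO2 to KO4, and its green signal was 231.5 to 264 and 166 to 198. For Ugt2b37 red was 507.5 to 694 and 759 to 1507, and green 260.5 to 299 and 234 to 242. Raw green thus lay lower on the KO arrays in Ugt2b5, Ugt2b34 and Ugt2b37, without overlap.

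After normalisation of both channels, green on KO2 to KO4 differed from green on WT2 to WT4 by 0.02 for Ugt2b38, -0.06 for Ugt2b37, -0.19 for Ugt2b5 and -0.26 for Ugt2b34. Among all genes this quantity had a median of -0.01 and ran from -0.12 to 0.08 between the 10th and 90th percentiles. The value of Ugt2b34 stood at percentile 0.279 and that of Ugt2b5 at percentile 2.12. Red alone differed by 1.29, 0.85, 1.19 and 0.85 in the order Ugt2b38, Ugt2b37, Ugt2b5 and Ugt2b34, against ratios of 1.27, 0.91, 1.38 and 1.11 on these arrays. Red therefore carried most of each difference. The source of the green shift was not tested.

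Within the groups r was highest in 2 pairs of members, though r from 8 arrays is imprecise. With each array's deviation from its group mean, Ugt2b37 and Ugt2b38 correlated at r = 0.96 and Ugt2b5 and Ugt2b34 at r = 0.84 over the 8 arrays. Across these pairs r was lower, at 0.54 for Ugt2b5 with Ugt2b37, 0.53 for Ugt2b5 with Ugt2b38, 0.36 for Ugt2b34 with Ugt2b37 and 0.32 for Ugt2b34 with Ugt2b38. Without WT1 and KO1 the values were 0.97 and 0.94 within the pairs and 0.35 to 0.60 across them.

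Of the pairs, Ugt2b37 and Ugt2b38 also had the most alike start regions, while Ugt2b5 shared more letters with Ugt2b38 than with Ugt2b34. Ugt2b5 and Ugt2b34 are also the members with the green shifts of -0.19 and -0.26, and the part of these shifts in their r was not tested. The correlations entered the choice of the members and are a description. The 8 arrays share the green reference, and the probes' letters were not used here. Probes of near-identical transcripts may bind more than one of them, so which Ugt2b transcript each probe read is uncertain.

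**Figure D2:**
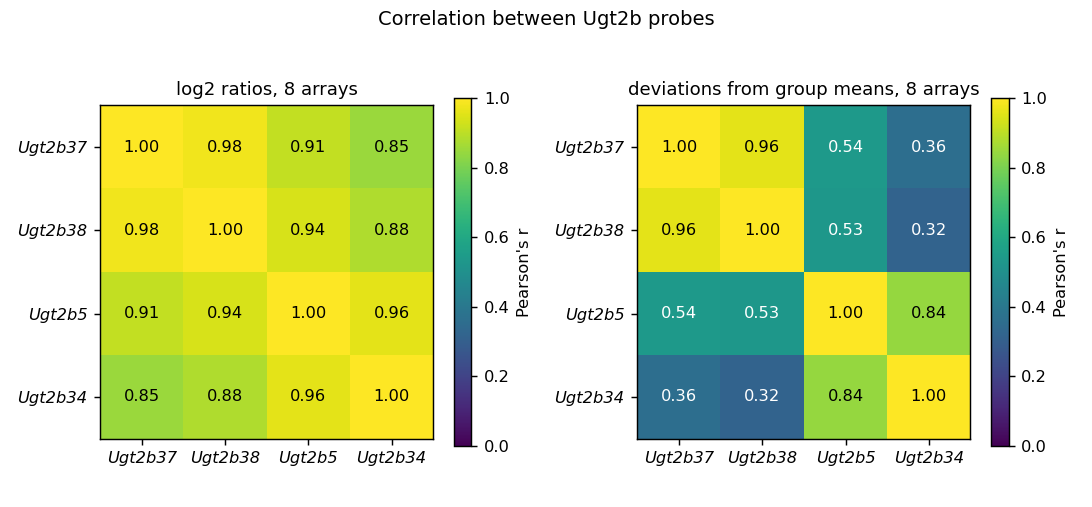
Pearson's r between the log2 ratios of the 4 measured Ugt2b probes over 8 arrays, from all values (left) and from deviations from the group means (right). All r values are 0.85 or more on the left, where the group difference is included, and on the right only Ugt2b37 with Ugt2b38 (0.96) and Ugt2b5 with Ugt2b34 (0.84) remain above 0.8.

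Proximal tubule genes were examined beside the members. All 30 listed genes, from the phosphate transporter gene Slc34a1 and the endocytic receptor genes Lrp2 and Cubn to Hnf4a, were measured and had positive differences, with a median of 0.43 and a range of 0.09 to 1.01. None passed in limma. An unadjusted p under 0.05 was found in 20 of the 30, against 14.5% of all genes, and in 9 all KO arrays lay above all WT arrays, against 6.82% of all genes. Their summed red signal, as processed by the scanner software and not normalised between arrays, was 74510 to 183800 in WT and 145300 to 298400 in KO. Fbp1, a gluconeogenic enzyme gene, alone had a larger difference (1.01 ± 0.36, adjusted p = 0.193) than Ugt2b37, the lowest of the measured members.

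By array, the median ratio of the 30 genes was -0.08, -0.21, -0.16 and -0.61 in WT and -0.07, -0.10, 0.53 and 0.23 in KO. The median of the 4 members was -0.03, -0.13, 0.08 and -0.52 in WT and 0.86, 0.70, 1.27 and 1.02 in KO. WT4 was low and KO3 and KO4 were high in both. Within the groups the medians correlated at r = 0.95 over the 8 arrays, against 0.38 for the hepatocyte list, -0.17 for the adrenal list and 0.66 for the gut list. With the group difference included, r was 0.88 for the proximal tubule list, 0.87 for hepatocyte, 0.24 for adrenal and 0.64 for gut. The hepatocyte, adrenal and gut medians rest on 10, 6 and 3 measured genes. In 28 of the 30 genes and 3 of the 4 members, WT4 had the lowest WT value, and KO3 had the highest KO value in 26 of the 30 genes and 2 of the 4 members.

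Taken as the excess over the proximal tubule median of the same array, the members' median was 0.04, 0.08, 0.24 and 0.09 in WT (0.11 ± 0.09, SD, n = 4) and 0.93, 0.80, 0.74 and 0.79 in KO (0.81 ± 0.08, SD, n = 4). The excess was highest on KO1, an array of high background, where the proximal tubule median was -0.07, beside a highest WT median of -0.08. The group difference on this scale was 0.70. By gene it was 0.87 for Ugt2b38, 0.85 for Ugt2b5, 0.65 for Ugt2b34 and 0.49 for Ugt2b37. The members were chosen by their KO against WT ratios, so these differences follow in part from that choice and are a description. The groups overlapped for Ugt2b37, with WT2 at 0.33 and KO3 at 0.31. In whole kidney RNA, more cells of a type and more RNA per cell cannot be told apart.

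**Figure D3:**
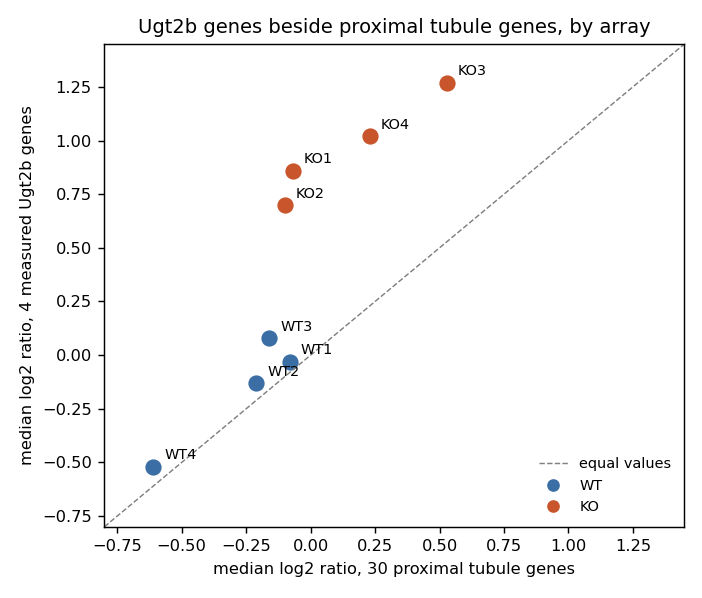
Median log2 ratio of the 4 measured Ugt2b genes (vertical) against that of 30 proximal tubule genes (horizontal), one point per array, with a dashed line of equal values. WT points lie near the line, 0.04 to 0.24 above it, and KO points lie 0.74 to 0.93 above it. The members were chosen by their KO against WT ratios, so the distance of the KO points follows in part from that choice.

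Other tissues that express Ugt2b genes were checked by their markers. Of 20 hepatocyte markers 10 were measured; Afp, the fetal albumin-like carrier, rose by 0.89 ± 0.11 (adjusted p = 0.00289), and Fgb, a fibrinogen chain, fell by 0.50 ± 0.10 (adjusted p = 0.0233). The list median was 0.43, with a summed red signal of 8688 to 14990 in WT and 14260 to 16980 in KO. By array the list's median ratio was -0.12 to 0.17 in WT and 0.19 to 0.48 in KO. Among the markers above background on all 8 arrays that did not pass were Ttr (0.99 ± 0.25, adjusted p = 0.064), Serpina1a (0.77 ± 0.47), Ambp (0.58 ± 0.17), Trf (0.45 ± 0.14) and Apoa2 (0.16 ± 0.12). Alb was well above background on 1 array and Ahsg and Apoa1 on 2 each. Of 12 adrenal markers 6 were measured, with a median of 0.04, sums of 267.8 to 4358 in WT and 334.7 to 959.3 in KO, and Cyp11a1 above background on 0 arrays. Of 9 gut markers 3 were measured, with a median of 0.13 and sums of 1437 to 7854 in WT and 1552 to 2112 in KO. These sums, too, are of the software's processed red signal, not the raw medians given for the members. The sums hold every probe of a list, also those not well above background, and the red background was high on WT1 and KO1. None of the adrenal or gut markers passed. An unadjusted limma p under 0.05 was found in 6 of the 10 measured hepatocyte genes, against 14.5% of all genes. It was found in 1 of the 6 adrenal and 0 of the 3 gut genes. In 2 of the 10 hepatocyte genes all KO arrays lay above all WT arrays, against 6.82% of all genes, and in 1 all lay below. The part of other cell types in the members' differences was not tested.

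Other genes of glucuronidation and of related conjugation and steroid metabolism were read from 6 lists that hold no member. Of 136 genes, 127 had a probe and 112 were tested. Of these 7 passed as higher and none as lower (6.25%, against 2.15% of all genes in either direction). An unadjusted limma p under 0.05 in either direction was found in 46, against 14.5% of all genes. Uxs1 and Abcc1 were among the 46 with a negative difference. The median difference was 0.15, against 0.03 over all genes. The same 0.03, and the 1.61% of all genes that passed as higher in KO, stand beside each list below. The lists were written with earlier results of these data known, so their shares may reflect that choice. With the replicate number as a block, 13 of the 112 rose, against 3.18% of all genes in that fit. The count was 4 without WT1, 4 without WT2 and 2 without KO4, and with a term for sex it was 0, with 24 at an unadjusted p under 0.05, against 11.9% of all genes in that fit.

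Of the other UDP-glycosyltransferases, 14 in the list, 7 had a probe and 4 were tested. None passed, 1 had an unadjusted p under 0.05, and the median was -0.04. Ugt1a10 gave 0.18, 0.36, -0.04 and -0.15 on the WT arrays and -0.40, -0.18, -0.04 and -0.27 on the KO arrays (-0.31 ± 0.12, adjusted p = 0.24), opposite in sign to the Ugt2b genes and with overlapping groups. Ugt1a genes share their last exons, so a probe there reads several of them. Ugt8a, which adds galactose to ceramide, differed by 0.16 ± 0.08 (adjusted p = 0.39).

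In the supply and use of UDP-glucuronate, 1 of 14 tested genes rose, with a list median of 0.09. It was Rgn, the gluconolactonase of the pathway that consumes glucuronate, at -0.17, -0.06, -0.02 and 0.14 on the WT arrays and 0.26, 0.41, 0.49 and 0.50 on the KO arrays (0.45 ± 0.09, adjusted p = 0.0321). Uxs1, in which all KO arrays lay below all WT arrays, differed by -0.26 ± 0.08 (adjusted p = 0.141). Ugdh, which makes UDP-glucuronate, differed by 0.42 ± 0.11 (adjusted p = 0.0699). Its ratios were -0.49, -0.34, 0.00 and -0.24 on the WT arrays and 0.15, 0.00, 0.21 and 0.26 on the KO arrays, with WT3 and KO2 equal after rounding.

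Of 26 tested genes of sulfation and other conjugation, 3 rose and none fell, with a median of 0.26. Nat8, an acetyltransferase of tubular cells, was -0.25, -0.28, -0.58 and -0.72 on the WT arrays and 0.35, 0.49, 1.84 and 1.14 on the KO arrays (1.41 ± 0.26, adjusted p = 0.0178). Sult1c2, a cytosolic sulfotransferase, was 0.11, -0.42, -0.08 and -0.90 in WT and 0.35, 0.66, 1.00 and 0.73 in KO (1.01 ± 0.19, adjusted p = 0.0201). KO3 was the highest KO array in both. Sult1d1, another sulfotransferase, rose by 0.77 ± 0.13 (adjusted p = 0.0144).

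Among 22 tested genes of glucuronide transport, 1 rose, with a median of 0.14. Slco1a4, an organic anion uptake transporter, was -0.07, 0.01, 0.21 and 0.00 on the WT arrays and 0.36, 0.41, 0.59 and 0.49 on the KO arrays (0.43 ± 0.09, adjusted p = 0.0335). In 5 of the 22 transport genes all KO arrays lay above all WT arrays, against 6.82% of all genes, and in 2 all lay below. These 2 were Abcc1 (-0.31 ± 0.08, adjusted p = 0.0812) and Abcb1b (-0.23 ± 0.10, adjusted p = 0.274). Among 25 tested regulators of Ugt genes, 1 rose, with a median of 0.16. It was Nr1h4, the bile acid receptor FXR, at -0.07, -0.32, -0.37 and -0.57 in WT and 0.56, 0.28, 1.07 and 0.69 in KO (0.98 ± 0.15, adjusted p = 0.00832). The WT arrays of Nr1h4 ended below all its KO arrays. Hnf4a, a nuclear receptor of tubule and liver, differed by 0.11 ± 0.11 with overlapping groups.

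In steroid hormone metabolism 1 of 21 tested genes rose, with a median of 0.18. It was Cyp2e1, a cytochrome P450 better known for small solvents, at -0.26, -0.04, -0.11 and -0.71 on the WT arrays and 1.66, 1.28, 2.74 and 2.14 on the KO arrays (2.24 ± 0.26, adjusted p = 0.00157). Its second probe gave 1.23. The KO arrays stood in the order KO3, KO4, KO1 and KO2, which is also that of the members' median.

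**Figure D4:**
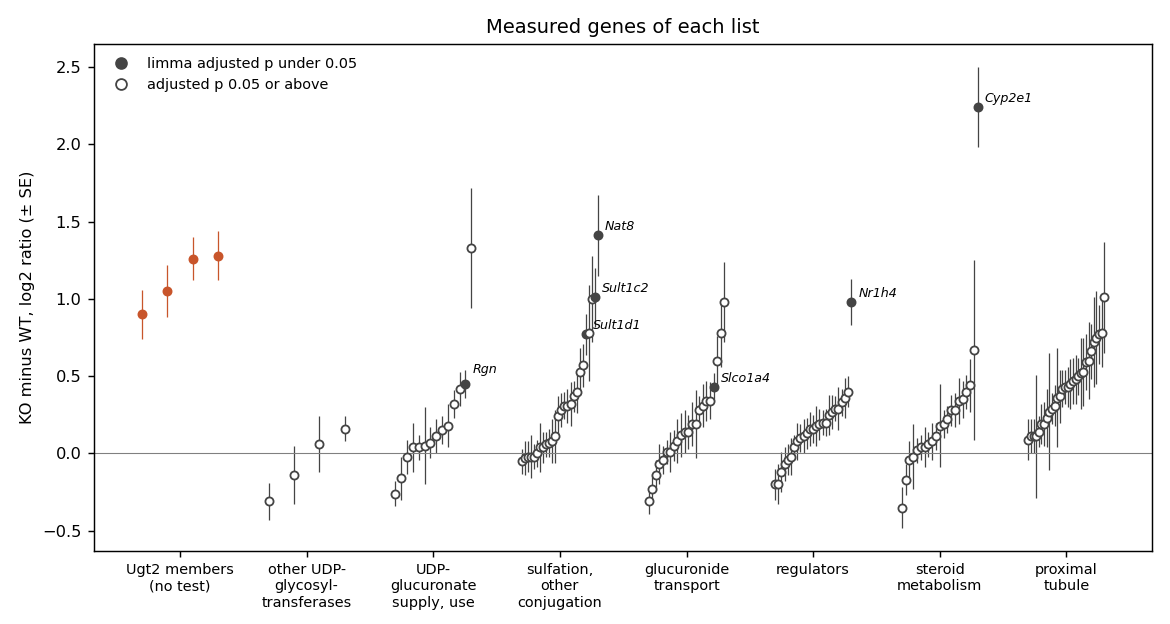
KO minus WT difference of each tested gene (log2 ratio, points, with SE bars), for the 4 measured Ugt2b members (orange, no test), the 6 pathway lists and the proximal tubule list, with filled points where the limma adjusted p was under 0.05. The list of other UDP-glycosyltransferases holds no filled point, the other 5 pathway lists hold 1 to 3 each, and the proximal tubule genes lie between 0.09 and 1.01 with none filled.

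The neighbours of the cluster were examined to see how far its position went with the differences. The window between and 10 genes to each side of the outermost members holds 34 other genes, of which 14 are protein coding, 13 have a probe and 4 were tested. These were Ythdc1, a reader of methylated RNA (0.13 ± 0.08, adjusted p = 0.516), on one side and the sulfotransferase genes Sult1b1 (0.53 ± 0.15, adjusted p = 0.0996), Sult1d1 and Sult1e1 (0.37 ± 0.10, adjusted p = 0.0715) on the other. Sult1d1 alone passed, at 0.07, -0.17, -0.10 and -0.41 on the WT arrays and 0.63, 0.25, 0.78 and 0.80 on the KO arrays. A second probe of Sult1d1, above background on 0 arrays, gave -0.02. In the 3 sulfotransferase genes all KO arrays lay above all WT arrays, as in 6.82% of all genes. The olfactory gene Ugt2a1 was above background on 0 arrays.

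The genes most like the members over the 8 arrays were named by Pearson's r, which includes the group difference. With Ugt2b38 these were Atp6v1g1, a proton pump subunit (r = 0.988), Aadac, a deacetylase of the endoplasmic reticulum (0.977), Cyb5a, cytochrome b5 (0.975), Anxa2 (0.967) and Apoe (0.962). Their own differences were 0.26 to 0.65, all smaller than that of Ugt2b38. With the median of the 4 members they were Tmem37 (0.993), the lipoprotein gene Apoe (0.992), Afp (0.989), Unc93b1 (0.988) and Tmem229a (0.986). Within the groups r with the member median was 0.92 to 0.96 for these 5. For the 5 genes named with Ugt2b38, r with it within the groups was lower, at 0.73 to 0.93. Atp6v1g1, Anxa2 and Unc93b1 did not pass in limma (adjusted p = 0.114, 0.086 and 0.0901). The r values over all arrays, by which the genes were named, are the highest among all genes tested and describe these arrays.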

How the data were processed

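Red and green median intensity values came from Agilent Feature Extraction 10.7.3.1, per the submitters' processing notes and the file headers. The deposited log10 ratios, per the file headers the software's own, and the deposited series table of log10 ratios (59305 rows, within 0.497% of them) served as alternatives. Intensities were background-corrected here (normexp, offset 50) and loess-normalised within arrays in limma 3.58.1 (R 4.3.3), without outlier spots (0.372% of readings). Probes were named by RefSeq accession, and kept where red was well above background on at least 4 of 8 arrays, with the brightest probe per gene. WT (n = 4) and KO (n = 4) were compared with lmFit and eBayes over 13987 genes, Benjamini-Hochberg threshold 0.05. Fold changes refer to this offset scale and understate dim genes. The number of arrays limits the precision. No label says whether replicates were separate litters, so p-values measure the spread between these samples.

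Same-numbered WT and KO samples shared slide columns, and their deviations correlated at r = 0.14, 0.37, 0.26 and 0.30. Between differently numbered samples r ran from -0.56 to 0.37, so whether the numbers pair the samples is not settled. Members and lists were chosen with earlier results of these data known. Text names every member, the called genes of each pathway list (or the 2 of smallest p), neighbours, and the 5 genes most alike. Ugdh, Uxs1, Abcc1, Abcb1b, Hnf4a, Fbp1 and the markers given were picked after their values were seen. One regulator is not reported here. The fit was tested on simulated data. Promoters were aligned globally with Biopython 1.88. Other processing, the background subtraction and filter included, could shift ratios of dim probes most.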

Additional observations from a re-analysis of the deposited data

Results flagged for a closer look

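One member value stood apart from its group. Ugt2b38 on KO2 was 0.98, while the other 3 KO arrays were between 1.42 and 1.46, a gap that was 0.918 of the group's range. Of 32 groups of 4 arrays examined, this was the only one past the limit, and chance flags about 1 in 20 groups.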

How the results depend on the processing

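Each of the 4 measured members stayed higher in KO under all 20 alternatives, at 0.97 to 1.98 for Ugt2b38, 1.09 to 1.57 for Ugt2b5, 0.77 to 1.36 for Ugt2b34 and 0.65 to 1.43 for Ugt2b37. Their median difference was 1.16, 1.05 to 1.26 with single arrays left out, and 1.49 with the red channel alone. Under these alternatives 0 to 4 of the members were called. The counts depended more on the processing. Against 301 genes and 7 pathway genes, the calls were 123 and 4 with the software's ratios, 123 and 4 with the deposited table, 0 and 0 with median centring (178 and 12 at an unadjusted p under 0.05), 1 and 0 with the red channel alone (111 and 8), and 12 and 0 (1661 and 24) under a term for sex. The replicate block, which treats same-numbered samples as pairs, gave 555 and 13. Leaving out single arrays gave 83 (without KO4) to 345 (without KO1) genes, and 2 to 8 pathway genes. In alternatives added after the data were seen, without WT1 and KO1, they were 143 and 4 with red alone, 65 and 1 with the software's ratios, and 540 and 17 with the block. By gene, Cyp2e1 and Nr1h4 passed in 16 of the 20 alternatives each, Sult1d1 in 14, Nat8 and Sult1c2 in 11, Rgn in 9 and Slco1a4 in 6, all with a positive difference throughout. The cause was not tested. Signal near background limits Ugt2a3, Ugt2b1, Ugt2b35 and Ugt2b36 on the 6 low-background arrays.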
